A study of Mus musculus with 16 samples.

Results

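The genes described here are 40 named genes of the integrated stress response, of serine and folate one-carbon metabolism, and of protein folding in the endoplasmic reticulum (ER). They were chosen by name, with earlier results of these data known, as the lines of the deposited table whose gene symbol is one of the 40. Of these, 39 had a line among the 20581 genes of the table, and Vldlr-as was not analysed here. All 39 passed the filter on low counts (CPM, the counts scaled to a fixed library size, of at least 1 in at least 4 libraries), as did 14217 genes in all. They were read in 4 groups by role: 10 genes of the ATF4 arm, 8 serine and folate enzymes, 14 ER chaperones and folding enzymes, and 7 sensors, XBP1 and degradation factors of the unfolded protein response (UPR).

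Total RNA was sequenced from cultured aortic smooth muscle cells of mice (strain C57BL/6J, all labelled male) in 16 libraries, 4 in each of 4 groups. KO cells in DIAM and KO cells in DMEM came from RBC.ARG1-KO mice, in which floxed Arg1 was deleted with a Cre recombinase under the erythropoietin receptor gene, a driver of the red blood cell lineage. WT cells in DIAM and WT cells in DMEM came from RBC.ARG1-WT littermates; the sources used here do not give their Cre status. DIAM is Dulbecco's modified Eagle medium (DMEM) with 0.1 µM dexamethasone, a synthetic glucocorticoid, 1 µM insulin and 50 µg/mL L-ascorbic acid, used for 10 days to load the cells with lipid; the DMEM cultures had 10% fetal bovine serum, and whether DIAM held serum is not given. The Cre driver is one of the red blood cell lineage, whether recombination took place in the cultured cells was not tested, and the 2 media differ in several agents at once. How long the DMEM cultures were kept is not given, so time in culture may differ between the media as well.

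The integrated stress response joins several kinases that phosphorylate the initiation factor eIF2. General translation then falls while the mRNA of the transcription factor ATF4 is translated more, and ATF4 raises genes of amino acid synthesis, serine and mitochondrial folate metabolism, and stress control. The unfolded protein response starts from sensors in the ER membrane and acts through XBP1, ATF6 and, by way of the sensor kinase encoded by Eif2ak3, through ATF4 as well. XBP1 and ATF6 are known to raise ER chaperones through an ER stress response element (ERSE) in their promoters, and ATF4 binds with C/EBP partners to a composite element (CARE) in genes such as Trib3, Chac1 and Asns.

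Promoter sequences of the members are shown as a feature that no expression value entered. The elements searched for were already known from ER chaperones and ATF4 targets, so matches in these groups are not independent evidence. RefSeq promoter windows (build GRCm38.p6, 250 bases before to 50 bases after each start site) were found for 36 of the 40 members; none was found for Atf6, Hyou1, Manf and Vldlr-as. Both strands were searched for 3 patterns: the ERSE (CCAAT, then 9 bases of any kind, then CCACG), the ERSE-II (ATTGG, any base, CCACG) and the CARE (TGATG, any base, AA, any base). No 2 matches in the members overlapped. The ERSE letters were in 7 of 12 chaperone windows, in 0 of the other 26 member windows (Atf5 and Psat1 have 2 each) and in 39 of all 32851 windows (0.119%). In the matches below, written 5′ to 3′ on the strand that matches, capitals mark the fixed letters of the ERSE.
Hspa5, chr2:34772020-34772048 (+): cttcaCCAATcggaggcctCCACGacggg
Hsp90b1, chr10:86705633-86705661 (-): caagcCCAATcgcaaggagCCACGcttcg
Hsp90b1, chr10:86705528-86705556 (+): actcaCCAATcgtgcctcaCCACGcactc
Dnajc3, chr14:118937822-118937850 (+): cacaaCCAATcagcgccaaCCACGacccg
Creld2, chr15:88819515-88819543 (-): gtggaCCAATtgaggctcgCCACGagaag
Calr, chr8:84847070-84847098 (+): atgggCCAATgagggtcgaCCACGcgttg
Canx, chr11:50325795-50325823 (-): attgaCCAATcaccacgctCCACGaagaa
Pdia6, chr12:17266486-17266514 (+): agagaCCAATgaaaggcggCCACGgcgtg

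The promoter of Hspa5, the gene of the central ER chaperone, is given at greater length, as the 250 bases of chr2:34771840-34772089 on the plus strand up to its start site. The capitals mark the 1 exact match to the ERSE letters, whose bases lie 65 to 47 bases before the start. Copies that depart from these letters were not searched for.
Hspa5: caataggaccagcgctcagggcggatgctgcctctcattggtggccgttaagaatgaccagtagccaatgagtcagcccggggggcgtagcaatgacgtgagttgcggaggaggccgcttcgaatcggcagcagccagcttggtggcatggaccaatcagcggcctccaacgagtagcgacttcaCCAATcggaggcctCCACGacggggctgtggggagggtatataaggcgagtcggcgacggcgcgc

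ERSE-II letters were in 1 chaperone window, that of Dnajb11, in the window of Herpud1, and in 12 of all windows (0.0365%). The CARE letters were in 4 of 11 windows of the ATF4 arm, in 0 of 9 windows of the serine and folate enzymes and 0 of 12 chaperone windows, in Herpud1, and in 1299 of all windows (3.95%). These matches follow, with the fixed letters in capitals; Herpud1, which encodes an ER membrane protein of protein degradation, holds one of each kind.
Dnajb11, ERSE-II, chr16:22857843-22857871 (+): ccggcggcgATTGGcCCACGcctggctgc
Herpud1, ERSE-II, chr8:94386368-94386396 (+): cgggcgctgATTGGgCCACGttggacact
Herpud1, CARE, chr8:94386306-94386334 (-): gggtgcgggcTGATGcAAcccgccgtggt
Trib3, CARE, chr2:152344029-152344057 (+): cccgcccggcTGATGtAAacctgagctaa
Chac1, CARE, chr2:119351038-119351066 (-): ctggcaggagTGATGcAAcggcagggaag
Asns, CARE, chr6:7693214-7693242 (-): cccagccacaTGATGaAActtcccgcacg
Nupr1, CARE, chr7:126625563-126625591 (+): aagccctgtcTGATGcAAtctggcccttt

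**Figure D1:**
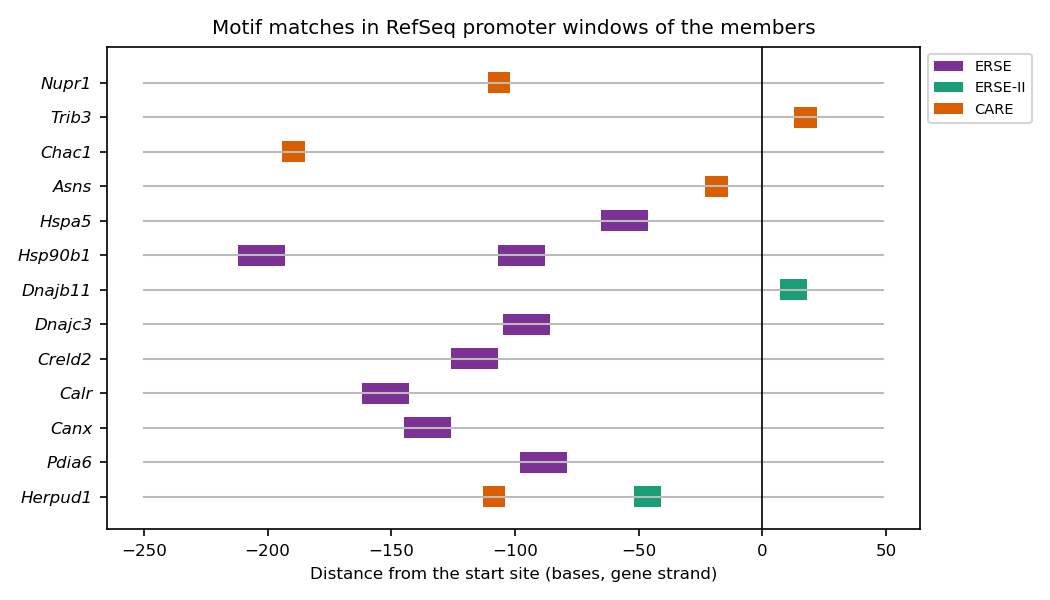
Position of ERSE, ERSE-II and CARE letter matches (coloured blocks) in the promoter windows of the 13 members with a match; the horizontal axis is the distance from the start site in bases on the gene's strand, and the vertical line marks the start. All 8 ERSE matches lie before the start site, while the CARE match of Trib3 and the ERSE-II match of Dnajb11 lie after it.

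The deposited estimated counts summed to between 37221192 and 47626331 per library. Arg1, the deleted gene, had at most 49 counts in any library (1 to 4 in KO DIAM, 2 to 49 in KO DMEM, 0 to 9 in WT DIAM and 3 to 4 in WT DMEM), so its level does not check the genotype labels in these cells. Xist, an RNA of the inactive X chromosome, was at 102 to 326 CPM in all 16 libraries although every sample is labelled male. Smooth muscle markers were present: Acta2 was at 553 to 1095 CPM in KO DIAM, 1268 to 2320 CPM in KO DMEM, 522 to 867 CPM in WT DIAM and 1637 to 2219 CPM in WT DMEM. The first principal component, which separated DIAM from DMEM, held 80.0% of the variance. On the second (6.85%) the library WT DIAM 2 lay farthest out, with a score of 35.3 against 3.79 to 17.5 for the other WT DIAM libraries.

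DIAM went with lower transcript levels of most ER chaperones and of Trib3, Ddit3 and Atf4 in both genotypes, and with a higher level of Xbp1. In KO cells 8 members rose and 22 fell in DIAM against DMEM at an adjusted p under 0.05 (edgeR quasi-likelihood test, Benjamini-Hochberg adjustment over all genes), and in WT cells 2 rose and 20 fell. A large part of the transcriptome differed between the media, so these counts need the background: 60.7% of all genes were called in KO cells and 55.1% in WT cells. In KO cells 29.8% of all genes rose and 30.8% fell, against 20.5% and 56.4% of the members, and in WT cells 27.6% rose and 27.5% fell, against 5.13% and 51.3% of the members. The members' median log2 fold change was -0.18 in KO cells and -0.14 in WT cells, beside -0.02 and -0.01 over all genes. In this edgeR fit the fall of 18 members was called in both genotypes. Xbp1 was the 1 member whose rise was called in both. No member had opposite calls in this fit, while Mthfd1l had them by DESeq2, as given below. Libraries did not overlap between media for 27 members in KO cells (6 higher and 21 lower in DIAM, where 27.3% and 27.8% of all genes did so) and for 21 members in WT cells (2 higher and 19 lower, where 24.3% and 24.7% did so).

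**Figure D2:**
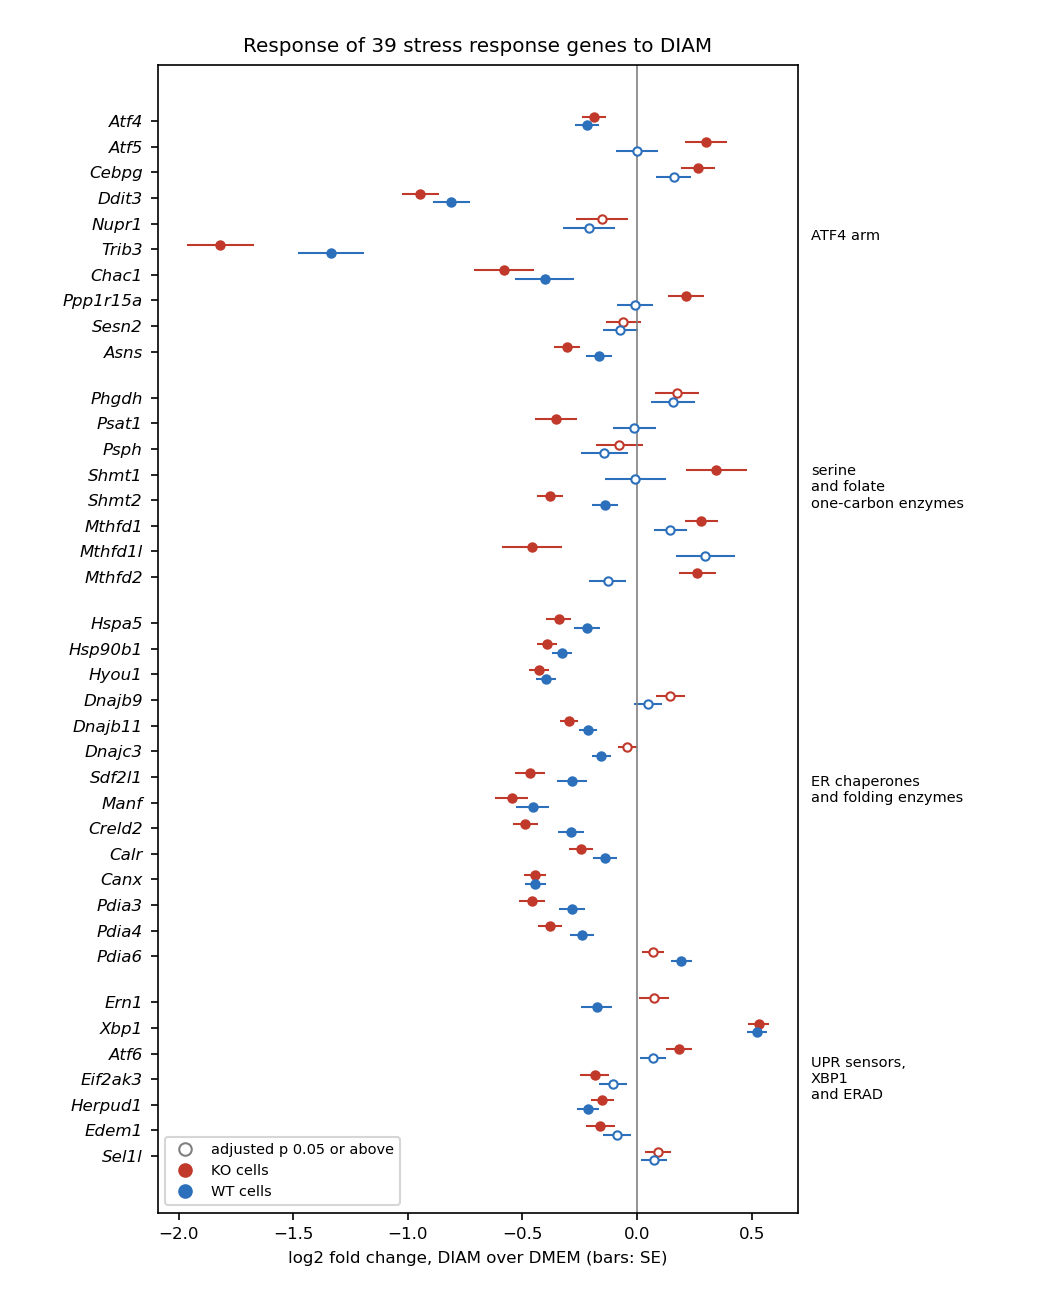
Log2 fold change of DIAM over DMEM for the 39 members, by role group, in KO cells (red, upper point) and WT cells (blue, lower point); bars are standard errors and open points have an adjusted p of 0.05 or above. Trib3 and Ddit3 lie farthest to the left, most ER chaperones lie between -0.14 and -0.55, and Xbp1 lies near 0.5 in both genotypes.

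In the ATF4 arm, 3 members rose and 5 fell in KO cells, and 0 rose and 5 fell in WT cells, with medians of -0.17 and -0.19. The 5 that fell were the same in both genotypes: Trib3, Ddit3, Chac1, Asns and Atf4. Trib3 (ENSMUSG00000032715), a pseudokinase induced by ATF4 and by the product of Ddit3, changed most of all 39 members. Its level was 10.2, 11.5, 10.9 and 11.1 CPM in KO DIAM libraries 1 to 4, against 29.3, 42.9, 38.4 and 43.6 CPM in KO DMEM. In WT cells it was 13.4, 21.3, 13.9 and 14.0 CPM in DIAM, against 43.6, 40.2, 39.7 and 34.8 CPM in DMEM. Every DIAM library was below every DMEM library in both genotypes, and WT DIAM 2 stood above the other DIAM libraries. Trib3 was 3.53-fold lower in DIAM in KO cells (log2 fold change -1.82 ± 0.147 SE, adjusted p = 2.92e-08) and 2.52-fold lower in WT cells (-1.33 ± 0.143, adjusted p = 1.01e-06; edgeR).

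Ddit3 (ENSMUSG00000025408) encodes CHOP, a transcription factor of prolonged ER stress. It was at 30.0, 28.1, 29.0 and 26.1 CPM in KO DIAM and at 48.4, 57.7, 54.8 and 57.0 CPM in KO DMEM. WT libraries had 32.7, 30.6, 32.9 and 29.1 CPM in DIAM and 64.7, 52.9, 52.4 and 49.7 CPM in DMEM. The media did not overlap in either genotype, and Ddit3 fell by 0.95 ± 0.0812 (SE, log2 scale) in KO cells and by 0.81 ± 0.0808 in WT cells (edgeR adjusted p = 5.25e-08 and 3.78e-07). Atf4 itself (ENSMUSG00000042406), which is controlled mainly in translation, changed less. Its levels were 191, 203, 202 and 191 CPM in KO DIAM, against 223, 215, 237 and 221 CPM in KO DMEM. In WT cells they were 200, 190, 190 and 192 CPM in DIAM, against 244, 230, 219 and 204 CPM in DMEM. All DIAM libraries were again below all DMEM libraries, though by a small margin in WT cells, and the fall was 0.19 ± 0.0529 in KO cells and 0.22 ± 0.0529 in WT cells on the log2 scale (edgeR adjusted p = 0.00589 and 0.00238). RNA counts do not measure ATF4 protein.

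Chac1, an enzyme that breaks down glutathione, fell by 0.58 ± 0.131 on the log2 scale in KO cells and by 0.40 ± 0.130 in WT cells. Asns, asparagine synthetase, was at 67.8, 70.6, 73.0 and 61.4 CPM in KO DIAM and 81.5, 83.1, 87.6 and 84.9 CPM in KO DMEM; in WT cells it was at 80.5, 83.0, 77.7 and 76.1 CPM in DIAM and 94.3, 85.8, 92.5 and 83.1 CPM in DMEM. Both genotypes showed the fall (log2 fold change -0.31 ± 0.0567 in KO and -0.16 ± 0.0565 in WT, edgeR adjusted p = 0.000212 and 0.0209), without overlap between media; the WT call of Asns was lost without WT DIAM 3 or 4 or WT DMEM 1 or 3 (adjusted p 0.0513 to 0.0695). Not every gene of the arm fell. Atf5, a factor related to ATF4, had a mean of 627 ± 85.0 CPM in KO DIAM and 509 ± 35.2 CPM in KO DMEM (SD, n = 4 each), with overlap because KO DIAM 4 had 502 CPM, and was called higher in KO cells (log2 fold change 0.30); its estimate in WT cells was 0.00. Cebpg, a dimer partner of ATF4, and Ppp1r15a, which directs a phosphatase to eIF2, were called higher in KO cells (0.27 and 0.22), with 0.16 and -0.01 in WT cells where neither was called. The call of Ppp1r15a was lost without KO DIAM 1 or 3 or KO DMEM 1 or 4 (edgeR adjusted p 0.0666 to 0.0842), and under quantile scaling with limma neither Ppp1r15a (0.201) nor Cebpg (0.0607) was called. Nupr1, a small chromatin protein, and Sesn2, a leucine sensor, were called in neither genotype, with estimates between -0.21 and -0.06. Whether the response of any of these genes differed between genotypes is a separate test, given below.

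Most ER chaperones and folding enzymes fell: 11 of 14 fell and 0 rose in KO cells, and 12 fell and 1 rose in WT cells, with medians of -0.39 and -0.26. The fall was called in both genotypes for the same 11 genes. Their changes were moderate, between 0.25 and 0.55 on the log2 scale in KO cells and between 0.14 and 0.45 in WT cells. Leaving out any 1 library of either medium left 11 falls in KO cells and 11 to 12 in WT cells. Hspa5 (ENSMUSG00000026864) encodes BiP, the chaperone that binds unfolded chains and the sensors. It was at 1022, 967, 986 and 1018 CPM in KO DIAM and 1290, 1275, 1231 and 1265 CPM in KO DMEM. WT levels were 1117, 1142, 1052 and 1073 CPM in DIAM and 1417, 1248, 1241 and 1194 CPM in DMEM. No DIAM library reached a DMEM library, and the falls were 0.34 ± 0.0555 in KO cells and 0.22 ± 0.0554 in WT cells on the log2 scale (edgeR adjusted p = 6.1e-05 and 0.0033).

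Canx (ENSMUSG00000020368), the membrane-bound lectin chaperone calnexin, had the smallest p of the chaperones in WT cells. Its level was 509, 502, 502 and 523 CPM in KO DIAM, against 678, 671, 717 and 704 CPM in KO DMEM. In WT cells it was 541, 516, 527 and 536 CPM in DIAM, against 712, 696, 778 and 698 CPM in DMEM. The 2 genotypes gave the same estimate, -0.44 ± 0.0465 in KO cells and -0.44 ± 0.0465 in WT cells (edgeR adjusted p = 5.24e-07 and 6.7e-07). Hsp90b1, the ER member of the HSP90 family, was at 910, 906, 905 and 948 CPM in KO DIAM and 1189, 1189, 1223 and 1212 CPM in KO DMEM. The WT libraries had 987, 954, 965 and 966 CPM in DIAM and 1189, 1165, 1281 and 1222 CPM in DMEM. The DIAM libraries formed a narrow band below all DMEM libraries, with folds of 1.31 and 1.25 in KO and WT cells (DMEM over DIAM). Hyou1, a nucleotide exchange factor of BiP, was at 158, 163, 170 and 169 CPM in KO DIAM and 227, 221, 215 and 223 CPM in KO DMEM. In WT cells Hyou1 was at 175, 166, 174 and 167 CPM in DIAM and 213, 217, 238 and 228 CPM in DMEM, so that it too fell without overlap (-0.43 ± 0.0437 in KO and -0.40 ± 0.0436 in WT).

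Among the other chaperones, Manf, a secreted protein that binds BiP, had the largest estimates of the group, -0.55 in KO cells and -0.45 in WT cells. Creld2 and Sdf2l1, small ER proteins known as ER stress targets, fell by 0.49 and 0.47 in KO cells and by 0.29 and 0.29 (both genes) in WT cells. Calr, the soluble lectin chaperone calreticulin, fell by 0.25 in KO cells and by 0.14 in WT cells, where the call of Calr was lost without WT DIAM 3 or 4 or WT DMEM 1 or 2 (edgeR adjusted p 0.0522 to 0.0883), with only the WT groups in the fit (0.0919) and without the filter (0.0511), while the disulfide isomerases Pdia3 and Pdia4 fell by 0.46 and 0.38 in KO cells and by 0.28 and 0.24 in WT cells. The co-chaperones of BiP did not move as 1 group. Dnajb11 fell in both genotypes (by 0.30 in KO and 0.21 in WT); Dnajc3 fell in WT cells only by call (log2 fold change -0.16, against -0.04 in KO cells), and without the libraries WT DIAM 1 and WT DIAM 2 its adjusted p was 0.0512 (edgeR). Dnajb9 was called in neither, at 0.15 in KO cells and 0.05 in WT cells. In KO cells its DIAM libraries were all above its DMEM libraries, by a narrow margin (edgeR adjusted p = 0.0521). Some alternatives called that rise, DESeq2 among them (adjusted p = 0.0332). Pdia6, another disulfide isomerase, was the exception in direction: it was at 427, 424, 388 and 394 CPM in WT DIAM and 364, 359, 353 and 351 CPM in WT DMEM, higher without overlap (log2 fold change 0.19 ± 0.0474, edgeR adjusted p = 0.00252), and in KO cells the estimate was 0.07 and not called.

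Falls were called among chaperones with and without the ERSE letters. Of the 7 with ERSE, 5 fell in KO cells and 6 fell and 1 rose in WT cells (medians -0.34 and -0.22). Of the 5 others with a window, among them Dnajb11 with the ERSE-II letters, 4 fell in each genotype (medians -0.38 and -0.24). Pdia6, the chaperone that was higher in DIAM in WT cells, has the ERSE letters, as has Canx. No test of this comparison was made.

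Xbp1 (ENSMUSG00000020484), the transcription factor that raises many ER chaperones once its mRNA is spliced, stood opposite to the chaperones. It was at 171, 175, 166 and 185 CPM in KO DIAM and 116, 124, 124 and 119 CPM in KO DMEM. WT levels were 172, 166, 185 and 180 CPM in DIAM and 125, 119, 123 and 122 CPM in DMEM. All DIAM libraries were above all DMEM libraries, and the rise was 1.44-fold in both genotypes (log2 fold change 0.53 ± 0.0451 in KO and 0.52 ± 0.0451 in WT, edgeR adjusted p = 4.84e-08 and 6.93e-08). Counts per gene do not separate spliced from unspliced Xbp1, so they say nothing of its activation.

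**Figure D3:**
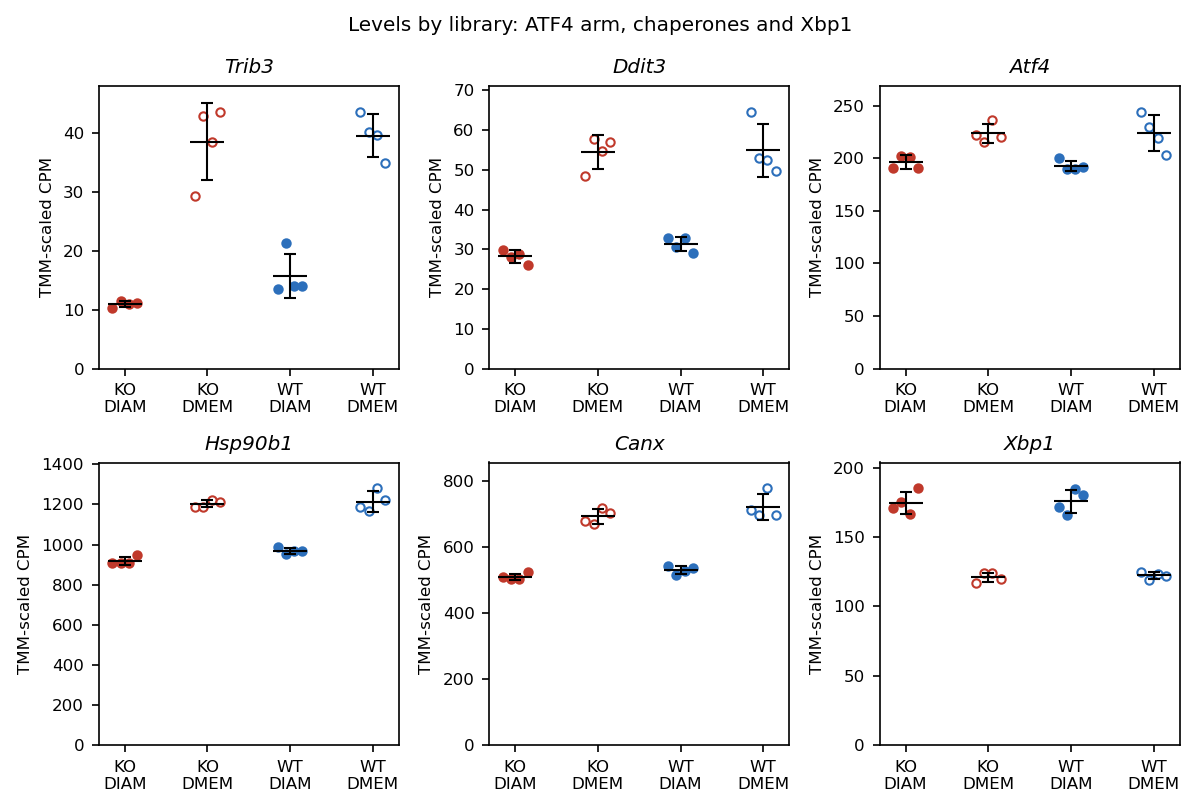
TMM-scaled CPM in each library (points) with mean and SD (black) for Trib3, Ddit3, Atf4, Hsp90b1, Canx and Xbp1 in KO DIAM, KO DMEM, WT DIAM and WT DMEM; filled points are DIAM, open points DMEM, and every vertical axis starts at 0. The first 5 genes are lower in every DIAM library than in any DMEM library of the same genotype and Xbp1 is higher.

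The other UPR genes moved less. Over the group of 7, 2 rose and 3 fell in KO cells, and 1 rose and 2 fell in WT cells (medians 0.07 and -0.09). Herpud1 was at 79.1, 83.2, 78.1 and 73.8 CPM in KO DIAM and 84.6, 91.5, 88.8 and 83.9 CPM in KO DMEM. Its WT levels were 76.3, 72.8, 81.1 and 77.6 CPM in DIAM and 93.5, 90.1, 86.1 and 87.4 CPM in DMEM. It was lower in DIAM in both genotypes without overlap (-0.15 ± 0.049 in KO and -0.21 ± 0.049 in WT), although the gap in KO cells was narrow and the KO call of Herpud1 was lost without KO DIAM 4 (edgeR adjusted p = 0.0526). Ern1, the sensor that splices Xbp1, was at 31.5, 30.6, 34.0 and 35.1 CPM in WT DIAM and 33.5, 37.0, 36.7 and 41.2 CPM in WT DMEM. These ranges overlapped, the call in WT cells (-0.18, edgeR adjusted p = 0.0334) was lost without WT DIAM 1 or 2 or WT DMEM 2 or 4 (0.058 to 0.126), without WT DIAM 1 and 2 together (0.315), with only the WT groups in the fit (0.0734) and in the authors' deposited table (0.112), and in KO cells Ern1 was not called (0.07). The KO libraries of Ern1 had 37.1, 37.8, 36.6 and 39.5 CPM in DIAM and 34.8, 38.1, 33.3 and 37.5 CPM in DMEM. Atf6, the sensor cleaved to a transcription factor, was called higher (0.18) and the sensor kinase gene Eif2ak3 lower (-0.18) in KO cells alone by call, with 0.07 and -0.10 in WT cells, and the call of Eif2ak3 was lost without KO DIAM 1 or KO DMEM 2 (edgeR adjusted p = 0.0633 and 0.0698). Edem1, which hands misfolded glycoproteins to degradation, fell by 0.16 in KO cells, with -0.09 in WT cells, and its call was lost without KO DIAM 1, 2 or 3 or KO DMEM 1 or 2 (0.0639 to 0.141). With only the KO groups in the fit, Edem1 (edgeR adjusted p = 0.0505) and Eif2ak3 (0.0526) were not called, nor was Edem1 without the filter (0.0592), and Atf6 was not called under quantile scaling with limma (0.122). Sel1l, a subunit of the degradation complex, was called in neither (0.09 and 0.07).

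Set side by side, the role groups differed in how uniformly they moved. Falls made up 50.0% of the ATF4 arm in each genotype, 78.6% and 85.7% of the ER chaperones in KO and WT cells, and 42.9% and 28.6% of the UPR sensors, XBP1 and degradation genes. Over all genes 29.8% rose and 30.8% fell in KO cells, and 27.6% rose and 27.5% fell in WT cells. The share of falls in the UPR group in WT cells was thus near that of all genes. The ATF4 arm held the largest single changes and also calls in the other direction in KO cells, the called changes of the chaperones were moderate and, apart from the rise of Pdia6 in WT cells, falls, and the UPR group had a rise as its largest change. These groups were small and set by name with earlier results of these data known. No test between them was made, and their values are a description.

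Among the serine and folate enzymes, calls went both ways in KO cells and were few in WT cells. In KO cells 3 rose and 3 fell, in WT cells 0 rose and 1 fell, and the medians were 0.05 and -0.01. The KO shares were 37.5% and 37.5%, not far from the 29.8% and 30.8% of all genes that rose and fell. In WT cells 0% rose and 12.5% fell, against 27.6% and 27.5% of all genes. Of the serine synthesis enzymes, Phgdh, which catalyses the first step, was called in neither genotype (0.18 in KO and 0.16 in WT), nor was Psph, which catalyses the last (-0.08 and -0.14). Psat1 (ENSMUSG00000024640), the transaminase between them, was at 60.2, 57.7, 55.0 and 58.6 CPM in KO DIAM and 73.8, 75.4, 71.7 and 74.5 CPM in KO DMEM. In WT cells it was at 74.6, 94.3, 67.3 and 66.2 CPM in DIAM and 84.3, 80.1, 70.7 and 69.8 CPM in DMEM. Psat1 thus fell without overlap in KO cells (-0.35 ± 0.0927, edgeR adjusted p = 0.00373) and showed no change of media in WT cells that the test could call (-0.01, 95% interval -0.21 to 0.19).

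The mitochondrial enzymes divided. Shmt2 (ENSMUSG00000025403), which turns serine into glycine in mitochondria, was at 42.4, 39.1, 41.7 and 41.3 CPM in KO DIAM and 48.7, 54.8, 55.8 and 54.7 CPM in KO DMEM. In WT cells it was at 51.8, 51.7, 46.5 and 45.9 CPM in DIAM and 52.7, 53.5, 57.0 and 52.7 CPM in DMEM. It fell by 0.38 ± 0.0563 in KO cells and by 0.14 ± 0.0561 in WT cells on the log2 scale (edgeR adjusted p = 2.44e-05 and 0.0433), and the WT call of Shmt2 was lost without WT DIAM 3 or 4 or WT DMEM 2, 3 or 4 (adjusted p 0.0501 to 0.132). The WT call of Shmt2 was also lost under both replicate blocks (0.0739 and 0.0603), with only the 2 WT groups in the fit (0.0749), without the filter on low counts (0.0696) and in the authors' deposited table (0.104). Mthfd1l (ENSMUSG00000040675), the mitochondrial enzyme that releases formate from formyltetrahydrofolate, was at 8.07, 9.43, 10.8 and 10.1 CPM in KO DIAM and 11.7, 15.4, 12.8 and 12.9 CPM in KO DMEM. WT cells had 19.3, 19.3, 14.2 and 14.2 CPM in DIAM and 15.5, 11.9, 13.5 and 13.5 CPM in DMEM. Mthfd1l fell without overlap in KO cells (-0.46 ± 0.130, edgeR adjusted p = 0.00618), and in WT cells its estimate was 0.30 ± 0.128 with overlap and no call (adjusted p = 0.059). In WT cells DESeq2 called Mthfd1l higher (0.30, adjusted p = 0.0462). EdgeR did so without WT DIAM 3 (0.0282), WT DIAM 4 (0.0299) or WT DMEM 1 (0.0314). Its fall in KO cells was called in all 17 alternatives. Mthfd2, the mitochondrial dehydrogenase of the same path, was called higher in KO cells (0.26; not under quantile scaling with limma, adjusted p = 0.0874), with -0.13 in WT cells. The cytosolic enzymes Mthfd1 and Shmt1 were called higher in KO cells (0.28 and 0.35), with 0.14 and -0.01 in WT cells; Mthfd1 was at 48.4, 43.5, 43.6 and 46.0 CPM in KO DIAM and 38.5, 35.3, 35.3 and 40.3 CPM in KO DMEM, and at 40.1, 34.4, 44.3 and 42.0 CPM in WT DIAM and 34.7, 36.9, 38.0 and 35.8 CPM in WT DMEM. Shmt1 was at 4.04 ± 0.108 CPM in KO DIAM and 3.18 ± 0.330 CPM in KO DMEM (SD, n = 4 each), and its call was lost (edgeR adjusted p 0.0587 to 0.0898) without any 1 of KO DIAM 2, 3 and 4 or of KO DMEM 1 and 3.

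At an adjusted p under 0.05, KO cells had lower levels than WT cells in DIAM for 7 members, from 3 role groups: Trib3 and Asns, the folate and serine enzymes Mthfd1l, Psat1 and Shmt2, and the chaperones Pdia3 and Dnajb11. No member was higher by call in the main fit. Over all genes 8.38% were called, with 3.43% higher and 4.95% lower in KO cells in this comparison, against 0% and 17.9% of the members. Mthfd1l had the largest difference: its KO DIAM mean was 9.61 ± 1.17 CPM and its WT DIAM mean 16.8 ± 2.95 CPM (SD, n = 4 each), a 1.75-fold lower level in KO cells (log2 fold change -0.80 ± 0.130, edgeR adjusted p = 0.00944). For Trib3 the difference was -0.52 (adjusted p = 0.0409), for Psat1 -0.39 (0.0231), for Shmt2 -0.25 (0.0177), for Asns -0.22 (0.0309), for Pdia3 -0.21 (0.0383) and for Dnajb11 -0.14 (0.0475), all by edgeR. In each of these 7 genes every KO DIAM library was below every WT DIAM library. Libraries of 10 members did not overlap with KO lower (the other 3 being Hspa5, Hsp90b1 and Creld2, without a call in the main fit) and of 1 member, Ern1, with KO higher. Over all genes 9.05% and 7.38% did so.

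WT DIAM 1 and WT DIAM 2 were the highest of the WT DIAM libraries for 5 of the 7 genes. For Mthfd1l they had 19.3 and 19.3 CPM, against 14.2 and 14.2 CPM in WT DIAM 3 and 4, and Psat1, Shmt2 and Asns were likewise higher in both of these libraries than in the other pair. Pdia3 was at 825, 821, 841 and 872 CPM in KO DIAM and at 1005, 1060, 907 and 904 CPM in WT DIAM, with 1168, 1150, 1166 and 1134 CPM in KO DMEM and 1259, 1175, 1153 and 1135 CPM in WT DMEM. Dnajb11 was at 120, 119, 121 and 121 CPM in KO DIAM and at 131, 135, 134 and 129 CPM in WT DIAM, with 150, 141, 156 and 143 CPM in KO DMEM and 155, 149, 160 and 149 CPM in WT DMEM; its WT DIAM libraries lay close together. Sox10, a marker of Schwann cells, the glia of peripheral nerves, was at 2.64 to 17.1 CPM in KO DIAM, and at 50.0 and 69.8 CPM in WT DIAM 1 and 2 and 31.9 and 30.9 CPM in WT DIAM 3 and 4. The summed level of 5 Schwann markers was 12.1 to 52.1 CPM in KO DIAM and 86.1 to 200 CPM in WT DIAM. Of these markers 4 were tested, and 0 were called by edgeR, with 3 estimates below 0 and 1 above (median log2 fold change -1.945). The 6 adipocyte markers summed to 2240 to 3310 CPM in KO DIAM and 1540 to 2410 CPM in WT DIAM; all 6 estimates were above 0 (median log2 fold change 0.59), with 1 called by edgeR, and Adipoq was at 206 to 286 CPM in KO DIAM and 119 to 196 CPM in WT DIAM, lowest in WT DIAM 2. The part of either marker list in the differences was not tested. In bulk RNA, fewer cells of a type and less RNA per cell cannot be told apart. Without WT DIAM 2, the difference was -0.33 for Trib3 (edgeR adjusted p = 0.151) and -0.26 for Psat1 (0.0668), and it was -0.72 for Mthfd1l (0.0255). Left out 1 at a time, each KO DIAM library and WT DIAM 1, 2 and 3 ended at least 1 of the 7 calls, and without KO DIAM 2, WT DIAM 1 or WT DIAM 2 the 1 call was that of Mthfd1l. Where calls were lost, the edgeR adjusted p was 0.0606 to 0.151 for Trib3, 0.0542 to 0.0707 for Psat1, 0.0621 to 0.0686 for Shmt2, 0.064 to 0.118 for Asns, 0.0659 to 0.15 for Pdia3 and 0.0681 to 0.142 for Dnajb11. Without both libraries, an alternative chosen after the data were seen, 0 of the 7 members passed: Mthfd1l was at -0.56 (0.209), Trib3 at -0.35 (0.378) and Psat1 at -0.20 (0.361). With only KO DIAM and WT DIAM in the fit, 0 members and 0 of all genes passed, the smallest adjusted p of a member being 0.0655 (Mthfd1l).

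**Figure D4:**
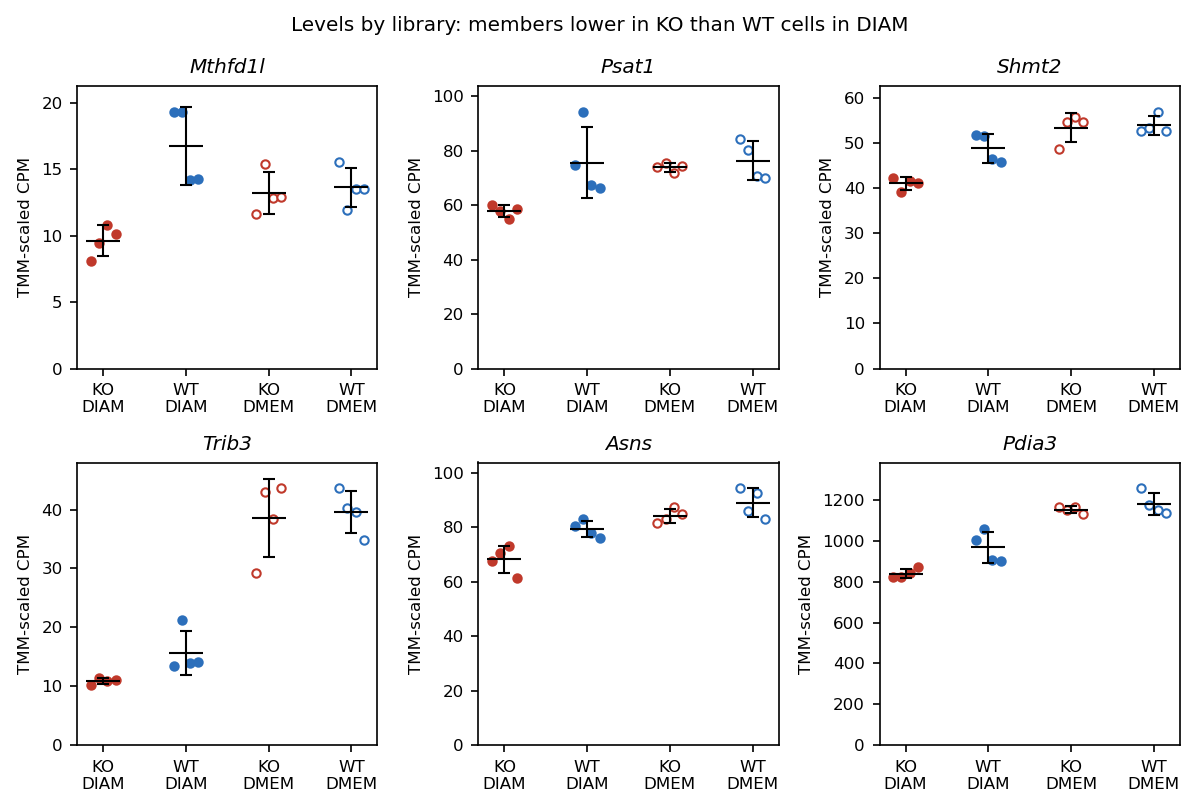
TMM-scaled CPM in each library (points) with mean and SD (black) for Mthfd1l, Psat1, Shmt2, Trib3, Asns and Pdia3 in KO DIAM, WT DIAM, KO DMEM and WT DMEM; filled points are DIAM, open points DMEM, and every vertical axis starts at 0. KO DIAM lies below WT DIAM without overlap in all 6, the WT DIAM libraries run from 14.2 to 19.3 CPM for Mthfd1l, and the DMEM groups overlap.

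In DMEM no difference between KO and WT cells passed for any member or for any of all genes (0% by edgeR), and 0 members had an unadjusted p under 0.05, where 3.08% of all genes (438) did; DESeq2 called 1 gene, and 2 genes pass in the authors' deposited table, none of them a member. The estimates for the members lay between -0.24 (Shmt1) and 0.07 (Sesn2), and the libraries of the genotypes overlapped for all 39, where 0.774% and 0.823% of all genes were higher or lower in KO cells without overlap. For Trib3 the difference was -0.04 (95% interval -0.34 to 0.27), for Mthfd1l -0.05 (-0.33 to 0.23), and for Hspa5 -0.01 (-0.13 to 0.11), all by edgeR with an adjusted p of 1.

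The interaction of genotype and medium tests whether the response to DIAM differed between KO and WT cells. It passed for 0 members and 0 of all genes by edgeR (0%), while 9 members had an unadjusted p under 0.05, as did 15.9% of all genes (2255); DESeq2 called 225 genes, 234 pass in the authors' deposited table, and in both Mthfd1l was the 1 member called. For Mthfd1l the edgeR estimate was -0.76 ± 0.182 (adjusted p = 0.171), DESeq2 gave -0.75 (adjusted p = 0.0217), and the authors' deposited table gives -0.74 (adjusted p = 0.0211). Without WT DIAM 1 and 2 the edgeR estimate was -0.52 (adjusted p = 0.653). The next largest was Trib3, at -0.48 (edgeR adjusted p = 0.269). Among the chaperones 12 of 14 estimates were below 0, with a median of -0.10 and 0 calls, beside a median of 0.00 over all genes. A call in KO cells and none in WT cells, as for Atf5, Cebpg, Mthfd2 or Atf6, therefore does not show that these genes responded differently.

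Further genes of the same pathways, from lists named for this report with earlier results of these data known, give the surroundings of the members. Beside them, 29.8% of all genes rose and 30.8% fell in KO cells, and 27.6% rose and 27.5% fell in WT cells. Of 29 other ATF4 target and amino acid stress genes, 11 rose and 11 fell in KO cells and 11 rose and 12 fell in WT cells. As shares, these are 37.9% and 37.9% in KO cells and 37.9% and 41.4% in WT cells. Cbs, which makes cystathionine from serine and homocysteine, rose to 13.7 ± 1.72 CPM in KO DIAM, against 1.28 ± 0.165 CPM in KO DMEM, and to 9.35 ± 2.14 CPM in WT DIAM, against 1.43 ± 0.115 CPM in WT DMEM (log2 fold changes 3.42 and 2.71). Stc2, a secreted glycoprotein, rose to 24.9 ± 2.44 CPM in KO DIAM, against 4.56 ± 2.19 CPM in KO DMEM, and to 38.9 ± 10.3 CPM in WT DIAM, against 3.25 ± 0.414 CPM in WT DMEM (2.45 and 3.58). These 2 moved opposite to Trib3 and Ddit3.

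Of 20 aminoacyl-tRNA synthetases, which charge tRNAs with amino acids, 6 rose and 3 fell in KO cells and 2 rose and 2 fell in WT cells. Wars1, the tryptophan enzyme, rose (0.39 in KO and 0.38 in WT) and Sars1, the serine enzyme, fell (-0.44 and -0.29). Of 17 genes of eIF2, its kinases, its exchange factor and its phosphatase partners, 5 rose and 4 fell in KO cells and 4 rose and 3 fell in WT cells. These shares too (29.4% and 23.5% in KO, 23.5% and 17.6% in WT) were near or below those of all genes. Eif2ak4, the kinase that senses uncharged tRNA, fell to 16.4 ± 0.704 CPM in KO DIAM, against 26.1 ± 1.9 CPM in KO DMEM, and to 16.9 ± 0.689 CPM in WT DIAM, against 25.4 ± 2.82 CPM in WT DMEM. Ppp1r15b, the constitutive partner of the eIF2 phosphatase, rose to 107 ± 1.42 CPM in KO DIAM, against 72.4 ± 2.81 CPM in KO DMEM, and to 104 ± 6.47 CPM in WT DIAM, against 73.9 ± 4.62 CPM in WT DMEM.

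Of 26 other serine, glycine and folate genes, 12 rose and 7 fell in KO cells and 11 rose and 7 fell in WT cells. Rises were 46.2% and 42.3% of this list in KO and WT cells (29.8% and 27.6% of all genes). Falls were 26.9% in each genotype (30.8% and 27.5% of all genes). Among those called in WT cells at a mean of at least 5 CPM, Gldc and Aldh1l1 had the largest changes. Gldc, of the glycine cleavage system, rose to 62.1 ± 6.79 CPM in KO DIAM, against 5.10 ± 1.70 CPM in KO DMEM, and to 68.3 ± 4.79 CPM in WT DIAM, against 4.79 ± 0.794 CPM in WT DMEM. Aldh1l1, which oxidises formyltetrahydrofolate in the cytosol, rose by 1.69 and 1.53 on the log2 scale in KO and WT cells. Of 54 other ER folding, translocation and degradation genes, 12 rose and 29 fell in KO cells and 11 rose and 31 fell in WT cells, with a median of -0.17 in each genotype. As shares, 22.2% rose and 53.7% fell in KO cells, and 20.4% rose and 57.4% fell in WT cells. Fkbp11, a prolyl isomerase of the secretory path, fell to 7.10 ± 0.904 CPM in KO DIAM, against 19.4 ± 0.637 CPM in KO DMEM, and to 10.6 ± 2.21 CPM in WT DIAM, against 20.4 ± 3.83 CPM in WT DMEM, while Os9, an ER lectin of protein degradation, rose by 0.74 and 0.65 on the log2 scale.

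**Figure D5:**
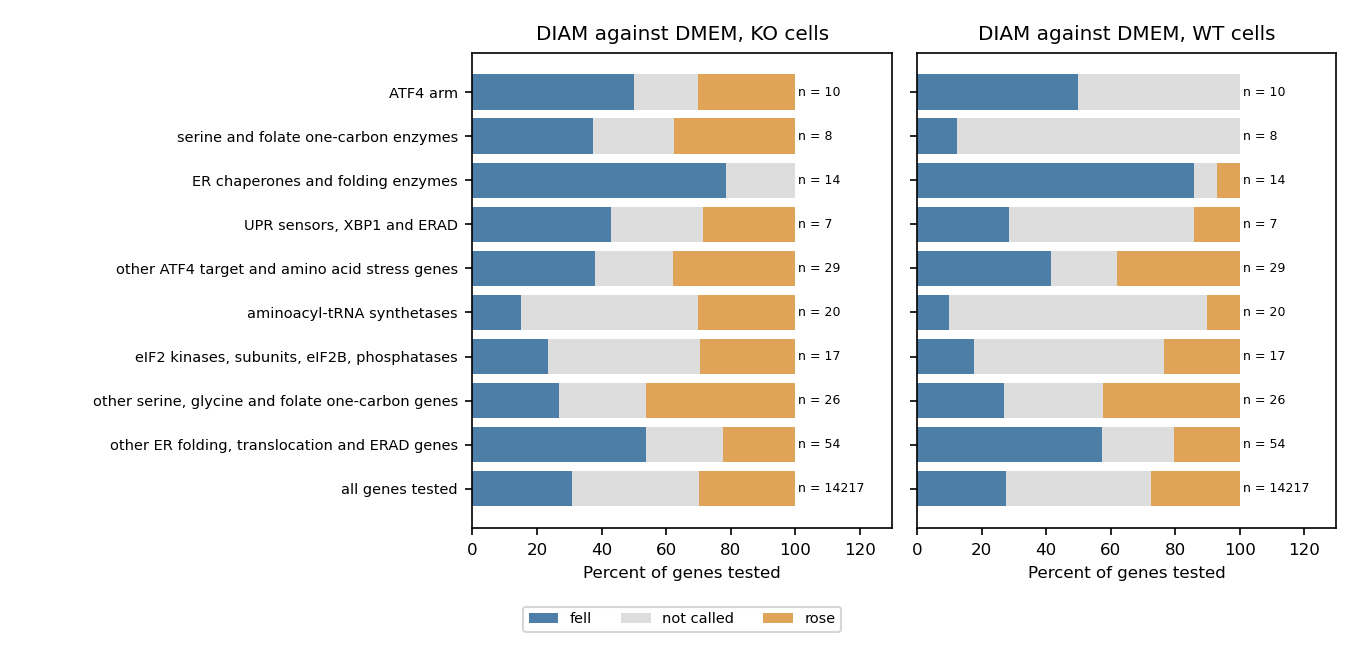
Percent of tested genes that fell (blue), were not called (grey) or rose (orange) in DIAM against DMEM in KO cells (left) and WT cells (right), for the 4 role groups of members, 5 lists of related genes and all genes tested, with n beside each bar. Falls take 78.6% and 85.7% of the ER chaperones in KO and WT cells, against 30.8% and 27.5% of all genes.

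Cell identity markers moved with the medium as well. The summed level of 9 smooth muscle markers was 2140 to 3350 CPM in KO DIAM against 4200 to 6380 CPM in KO DMEM, and 2060 to 2890 CPM in WT DIAM against 5090 to 6140 CPM in WT DMEM. These 9 did not all move the same way: 2 rose and 5 fell in KO cells, and 1 rose and 5 fell in WT cells (edgeR calls). Myh11 was at 92.5 to 187 CPM in KO DIAM against 70.3 to 133 CPM in KO DMEM. That of the 6 adipocyte markers found of 7 was 2240 to 3310 CPM in KO DIAM against 56.8 to 102 CPM in KO DMEM, and 1540 to 2410 CPM in WT DIAM against 75.6 to 94.4 CPM in WT DMEM. All 6 adipocyte markers rose in each genotype by call. Fibroblast markers summed to 2330 to 2590 CPM in KO DIAM against 941 to 1210 CPM in KO DMEM, and to 2430 to 3220 CPM in WT DIAM against 939 to 1200 CPM in WT DMEM. Of these 8 markers, 6 rose and 1 fell in KO cells, and 7 rose and 1 fell in WT cells. Leukocyte markers, 6 found of 8, summed to 1030 to 1350 CPM in KO DIAM and 1040 to 2250 CPM in KO DMEM. In WT cells they summed to 804 to 1400 CPM in DIAM and 787 to 1710 CPM in DMEM. Of these 6, 0 rose and 3 fell in KO cells, and 1 rose and 0 fell in WT cells. Of 7 endothelial markers, 5 rose and 1 fell in KO cells and 4 rose and 0 fell in WT cells. Of 5 mesothelial markers, 2 rose and 0 fell in each genotype. Over all genes 29.8% rose and 30.8% fell in KO cells, and 27.6% rose and 27.5% fell in WT cells. The part of these shifts in the members' changes was not tested.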

How the data were processed

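Total RNA of 16 libraries was sequenced after ribosomal RNA depletion with an unstranded kit, per the labels' protocols. The deposited table holds estimated counts per gene, made by the authors with Salmon 1.9.0 on GRCm39, per the submitters' processing notes; the labels call these columns TPM, but their totals differ between libraries as counts do. Deposited log2 fold changes and adjusted p-values are the authors' DESeq2 (1.46.0) results, per the submitters' processing notes and the file headers.

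Estimated counts were rounded and scaled by TMM. Genes with at least 1 CPM in at least 4 libraries were tested with edgeR 4.0.16 (R 4.3.3; quasi-likelihood test, two-sided) in 1 model of the 4 groups with 12 residual degrees of freedom. Benjamini-Hochberg adjustment ran over all 14217 genes, and a change was called at an adjusted p under 0.05. SEs were back-calculated from the test statistic, and intervals are approximate. The fit was tested on simulated data. Alternatives used DESeq2 1.42.0 and limma 3.58.1, other scaling and filters, replicate blocks, fewer groups and left-out libraries.

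The labels give 4 biological replicates per group in one place and triplicates in another, and nothing ties a library to an animal, so p-values measure the spread between these libraries, which may be technical. Same-numbered libraries did not deviate together in every pair (r from 0.00237 to 0.290 between KO media and from -0.0617 to 0.223 between WT media). Between genotypes r was -0.184 to -0.0152 in DIAM and -0.201 to 0.0999 in DMEM. Of 4 WT DIAM libraries, 3 were closest to the WT DMEM library of their own number. Among the KO DIAM libraries this held for 2 of 4. Some pairing within a genotype is thus possible. Numbers were not taken as pairs in the main fit, and replicate blocks were run as alternatives. Library correlations within groups were 0.987 to 0.995.

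The members and lists were chosen with earlier results of these data known. Library values are given for the 3 members of smallest p in WT cells in each role group, for Atf4, Ddit3, Hspa5 and Xbp1, and for members called by genotype. Values of Atf5, Pdia6 and the marker genes were added after they were seen. From each background list the 2 genes of largest change called in WT cells at a mean of at least 5 CPM are named. Overlapping genes share unstranded reads. 1 further marker gene is not reported here.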

Additional observations from a re-analysis of the deposited data

Results flagged for a closer look

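In 7 of the 156 sets of 4 libraries checked (39 genes in 4 groups), 1 library stood far from the other 3 by Dixon's test of the gap against the range of the set (95% level). Chance alone flags about 1 in 20 sets. WT DIAM 2 was the library in 2 of them: Trib3, the ATF4-induced pseudokinase, was at 21.3 CPM there and at 13.4 to 14.0 CPM in the other WT DIAM libraries, and Ppp1r15a was at 45.5 CPM there and at 55.5 to 57.2 CPM in the others. KO DMEM 1 was the library in 2 others, with Chac1 at 11.1 CPM, against 14.1 to 14.3 CPM in the other KO DMEM libraries, and Shmt2 at 48.7 CPM, against 54.7 to 55.8 CPM. Atf5 was at 561 CPM in KO DMEM 3 and at 485 to 497 CPM in the other KO DMEM libraries. Hsp90b1 was at 948 CPM in KO DIAM 4 and at 905 to 910 CPM in the other KO DIAM libraries, still below every KO DMEM library. Edem1 was at 131 CPM in WT DMEM 4 and at 113 to 115 CPM in the other WT DMEM libraries.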

How the results depend on the processing

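No call of a member changed sign under any alternative run. In KO cells 22 of 30 calls of the medium held in every setting, in WT cells 17 of 22, and 0 of the 7 calls of KO against WT in DIAM did. In KO cells, 1 chaperone (Dnajb9) rose under median-ratio scaling, DESeq2, the 2-group fit and both replicate blocks. Under quantile scaling, which put the median of all genes at -0.08 in each genotype and the share of rises among calls at 41.7% in KO and 40.1% in WT cells (49.2% and 50.1% with TMM), 4 KO members rose, 1 of the ATF4 arm and 1 of the UPR group. The 2-group fit left 1 UPR fall in KO cells. In WT cells, falls of serine and folate enzymes numbered 2 under quantile scaling and 0 without the filter, under both replicate blocks, in the 2-group fit and in the authors' deposited table. Of these enzymes, Mthfd1l rose by DESeq2 and Mthfd1 without WT DIAM 1 and 2, an alternative chosen after seeing the data. 1 ATF4 arm gene rose under the shared replicate block, and 1 UPR gene fell in the 2-group fit, in the authors' deposited table and without WT DIAM 1 and 2. For KO against WT in DIAM, 3 members fell without the filter, 0 in the 2-group fit and 0 without WT DIAM 1 and 2, while 2 rose by DESeq2, 1 under the shared replicate block and 1 in the authors' deposited table. Some members not called in the main fit were called lower in KO cells. Creld2 was so by DESeq2 (adjusted p = 0.0308), with the filter at 5 CPM (edgeR, 0.0451) and under quantile scaling with limma (0.0487). Hspa5 was so in the authors' deposited table (0.0367) and Pdia6 by DESeq2 (0.0238). Others were called higher in KO cells. Ern1 was so by DESeq2 (0.0333), under the shared replicate block (edgeR, 0.04) and in the authors' deposited table (0.0298). Mthfd2 was so by DESeq2 (0.0371). With 1 library left out, Ern1, Mthfd2 or Atf5 was called higher in some fits, and Creld2 or Sdf2l1 lower. Over all genes this comparison had 1191 calls, 0 in the 2-group fit, 1873 by DESeq2 and 178 to 1480 with 1 library left out. In the interaction 1 member fell by DESeq2 and in the authors' deposited table. The causes were not tested.

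Leaving out each library in turn gave, in KO cells, 20 to 23 falls and 6 to 8 rises of members (ATF4 arm 5 to 6 and 2 to 3; serine and folate 3 and 2 to 3; chaperones 11 and 0 to 1; UPR 1 to 3 and 2). WT cells had 17 to 19 falls and 2 to 4 rises (ATF4 arm 4 to 6 and 0 to 1; serine and folate 0 to 1 and 0 to 1; chaperones 11 to 12 and 1; UPR 1 to 2 and 1). KO against WT in DIAM had 1 to 8 falls and 0 to 2 rises, with 1 fall without KO DIAM 2, WT DIAM 1 or WT DIAM 2.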

Other observations

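Of 13 mitochondrial chaperones and proteases, 9 rose and 0 fell in KO cells and 8 rose and 0 fell in WT cells (DIAM against DMEM, edgeR adjusted p under 0.05). The medians were 0.52 and 0.31 on the log2 scale. Rises made up 69.2% and 61.5% of this list in KO and WT cells, against 29.8% and 27.6% of all genes. Over all genes 30.8% and 27.5% fell. This list too was chosen with earlier results of these data known. Clpx, the unfoldase of a matrix protease, rose to 63.8 ± 4.30 CPM in KO DIAM, against 27.2 ± 1.09 CPM in KO DMEM, and to 49.5 ± 6.56 CPM in WT DIAM, against 27.4 ± 2.77 CPM in WT DMEM (SD, n = 4 each). Afg3l2, a protease subunit of the inner membrane, rose by 0.69 in KO cells and 0.53 in WT cells.

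Of 22 cytosolic heat shock chaperones, 10 rose and 6 fell in KO cells and 9 rose and 6 fell in WT cells. As shares, 45.5% rose and 27.3% fell in KO cells, against 29.8% and 30.8% of all genes. In WT cells 40.9% rose and 27.3% fell, against 27.6% and 27.5% of all genes. Hspb1, a small heat shock protein, was at 470.5 ± 46.6 CPM in KO DIAM, against 125 ± 16.2 CPM in KO DMEM, and at 466 ± 40.5 CPM in WT DIAM, against 132 ± 5.19 CPM in WT DMEM. Hspa1b, a stress-induced member of the HSP70 family, rose by 1.43 in KO cells and 1.01 in WT cells, and its counts are uncertain because it shares nearly all of its sequence with Hspa1a.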
